A study of Homo sapiens with 16 samples.

Results

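The RNA polymerase II and Mediator genes were taken from a table of 56969 Ensembl genes by their protein-coding biotype and their symbols. A symbol had to begin with POLR2 and a letter from A to L, or with MED and a digit, or be CDK8, CDK19 or CCNC. This gave 48 genes, 15 of the polymerase and 33 of Mediator. Of these, 47 had a mean of 10 or more normalized counts and were tested. The remaining gene was a second Ensembl identifier of POLR2J2 (ENSG00000267645), listed at 0 in all 16 libraries. Other genes on the same strand, the first POLR2J2 identifier among them, share 99.2% of its exon bases. Its 0 therefore need not mean that transcript was absent. RNA was sequenced from HepG2, an established human liver cancer cell line, after siRNA against HCF-1 or control siRNA, with 8 libraries per group that the labels call biological replicates. In both groups the cells were reverse transfected 2 times, and RNA was taken 2 days after the second round. HCF-1, encoded by HCFC1, is a chromatin-bound cofactor of transcription, and the comparison asked which transcripts differ after its siRNA.

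RNA polymerase II makes messenger RNA and is built from subunits of its own together with subunits that also serve RNA polymerases I and III. Mediator is a large assembly that passes signals from DNA-bound activators to the polymerase at promoters. Its head and middle contact the polymerase, its tail receives many of the activators, and a separable kinase module with CDK8 or CDK19, cyclin C, MED12 and MED13 binds it reversibly.

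HCFC1 (ENSG00000172534) averaged 3682 ± 339.6 normalized counts in HCF-1 siRNA libraries and 5631 ± 671 in control siRNA libraries (SD, n = 8 each), with no overlap between the groups (log2 fold change -0.61 ± 0.07, limma adjusted p = 4.52e-06), so transcript of the targeted gene was reduced but not absent. Recovered read totals were 25098840 to 43186890 in HCF-1 siRNA libraries and 21030830 to 32820459 in control siRNA libraries. Of 16081 genes tested, 36.6% were called at a Benjamini-Hochberg adjusted p under 0.05 in limma, 18.2% higher and 18.3% lower after HCF-1 siRNA, and the median log2 fold change over all of them was 0.01. All 10 hepatocyte markers were tested, 7 were called higher and 1 lower, and their summed level was 867297 to 1036112 normalized counts after HCF-1 siRNA and 731010.2 to 796693 in controls. CD3E, HBB, KDR, TEK and THY1, which mark blood, endothelial and fibroblast cells, were at 0 in all 16 libraries. Other markers of the same lists were present: LYZ averaged 31191 normalized counts after HCF-1 siRNA and 29693 in controls, PDGFRB 599.7 after HCF-1 siRNA and 454 in controls, and CDH5 112 after HCF-1 siRNA and 91.0 in controls. The summed blood list was 27785 to 34015 after HCF-1 siRNA and 26691 to 31551 in controls, the endothelial list 94.6 to 158 after HCF-1 siRNA and 82.0 to 159.9 in controls, and the fibroblast list 381 to 919 after HCF-1 siRNA and 343 to 679 in controls. No tested marker of these 3 lists was called, and their part in the results was not tested. In bulk RNA, fewer cells of a kind and less RNA per cell cannot be told apart.

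Values below are the authors' normalized counts, which are read counts divided by a size factor for each library. Fold changes are log2 differences of HCF-1 siRNA over control siRNA on the log2(normalized count + 1) scale, with the standard error and 8 libraries in each group. Adjusted p-values come from limma with Benjamini-Hochberg adjustment over all genes tested.

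Promoter sequence was available for 34 of the 47 members tested, 9 of the polymerase and 25 of Mediator, from RefSeq on GRCh38.p14. Each window runs from 250 bases before to 50 bases after the annotated start, along the strand of the gene. Windows were searched on both strands for ACTACAA, the core of the site of ZNF143 and THAP11, which are known partners of HCF-1. The other words were CCGGAAG of ETS factors, AAGATGG of YY1, GCATGCG of NRF1, TTGGCGC and TTCCCGC of E2F factors, TGACGTC of CREB and TATAAA of the TATA box. Matches of TGACGTC and GCATGCG can overlap one another. Printed here are the 3 of the 4 members that rose whose windows hold a match, CDK19, MED17 and MED1, together with POLR2E, a member that fell and holds ACTACAA. Capitals mark the matches, written as they read along the strand of the gene, so a match on the other strand appears as its reverse complement. The CDK19 window is chr6:110815806-110816105 on the minus strand, with TTCCCGC and TGACGTC both on the other strand. The MED17 window is chr11:93784032-93784331 on the plus strand, with CCGGAAG in 2 places. The MED1 window is chr17:39451214-39451513 on the minus strand, with AAGATGG. The POLR2E window is chr19:1095326-1095625 on the minus strand, with ACTACAA and TTGGCGC.
CDK19: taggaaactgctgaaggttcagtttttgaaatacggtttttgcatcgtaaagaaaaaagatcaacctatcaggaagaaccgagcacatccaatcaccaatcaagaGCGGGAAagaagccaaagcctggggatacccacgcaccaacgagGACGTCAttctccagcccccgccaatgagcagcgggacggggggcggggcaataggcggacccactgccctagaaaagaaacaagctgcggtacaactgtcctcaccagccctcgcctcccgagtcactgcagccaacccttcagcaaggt
MED17: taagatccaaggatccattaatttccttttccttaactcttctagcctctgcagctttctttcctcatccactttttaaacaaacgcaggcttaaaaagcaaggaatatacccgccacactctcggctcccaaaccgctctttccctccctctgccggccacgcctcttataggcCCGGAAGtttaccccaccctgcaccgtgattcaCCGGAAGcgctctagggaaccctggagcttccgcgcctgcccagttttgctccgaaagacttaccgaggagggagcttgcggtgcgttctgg
MED1: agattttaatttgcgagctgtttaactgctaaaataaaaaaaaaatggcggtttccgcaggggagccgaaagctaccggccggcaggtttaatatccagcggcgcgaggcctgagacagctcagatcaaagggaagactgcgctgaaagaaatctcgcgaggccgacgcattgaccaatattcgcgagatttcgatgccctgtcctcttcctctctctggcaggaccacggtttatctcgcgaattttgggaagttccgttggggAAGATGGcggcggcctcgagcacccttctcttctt
POLR2E: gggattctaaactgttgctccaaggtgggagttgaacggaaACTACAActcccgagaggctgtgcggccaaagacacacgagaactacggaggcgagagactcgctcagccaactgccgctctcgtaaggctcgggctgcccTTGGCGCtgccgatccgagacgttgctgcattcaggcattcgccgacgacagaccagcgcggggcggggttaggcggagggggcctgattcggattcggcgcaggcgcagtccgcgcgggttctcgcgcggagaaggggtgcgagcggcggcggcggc

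CCGGAAG stood in 11 of the 34 member windows (32.4%), against 18.7% of the 10080 windows of all genes tested and 10.7% of all 27305 windows. The 11 were POLR2C, POLR2D, POLR2F and POLR2J2 of the polymerase and MED7, MED11, MED15, MED17, MED18, MED29 and MED31 of Mediator. AAGATGG was found in 6 windows (17.6%), all of Mediator genes, against 7.47% of windows of genes tested and 6.06% of all windows. ACTACAA was found in POLR2E, CDK8 and MED11 (8.82%), against 3.93% of windows of genes tested and 2.95% of all windows. The TATA box word occurred in MED7 and MED16 (5.88%), against 5.65% of windows of genes tested and 11.95% of all windows. The 4 members that rose held 3 windows with a match and MED23 held none of the words. Of the 6 members that fell and had a window, POLR2C, POLR2E, MED25, MED27 and MED29 held a match and MED20 held none. Members that were not called held matches as well, among them POLR2A, POLR2D, POLR2F, MED7, MED11, MED15, MED18 and MED31. The share of all genes tested with any of the words is not given, so these counts do not set the called members apart. No window was available for POLR2I, POLR2G, POLR2J, MED8, MED22 and MED30, which also fell. GCATGCG was in 3 windows (8.82%, against 6.49% of genes tested and 4.13% of all), TTGGCGC in 2 (5.88%, against 4.93% and 3.12%), TTCCCGC in 4 (11.8%, against 10.1% and 6.56%) and TGACGTC in 2 (5.88%, against 5.56% and 3.63%). A match describes the letters of a window and is not a binding site, and a window with no match says only that these words are not in it.

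Of the 14 polymerase genes tested, 5 fell after HCF-1 siRNA, none rose and 9 were not called. Of the 33 Mediator genes, 4 rose, 7 fell and 22 were not called. The called shares, 35.7% and 33.3%, lie close to the 36.6% of all genes tested, so the number of calls is no feature of either complex. By direction, 5 of 14 polymerase genes and 7 of 33 Mediator genes fell, where 18.3% of all genes did, and 0 of 14 and 4 of 33 rose, where 18.2% of all genes did. The log2 fold change was below 0 for 13 of 14 polymerase genes, with a median of -0.13 and a range of -0.40 to 0.15. It was below 0 for 16 of 33 Mediator genes, with a median of 0.02 and a range of -0.39 to 0.61. The parts of Mediator differed, with medians of 0.04 in the head, -0.04 in the middle, -0.15 in the tail and 0.10 in the kinase module. The tail median thus lay below that of the polymerase. Without the kinase module, the Mediator median was -0.04 over 26 genes, of which 3 rose and 7 fell. Over all genes tested, 49.2% were below 0. The 13 polymerase genes below 0 include POLR2B, at -0.01 ± 0.06. With a correction for transcript length and GC content, POLR2F and POLR2H turned above 0. Among Mediator genes, MED10 turned above 0 and MED28, MED13 and MED13L turned below 0 under that correction.

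**Figure D1:**
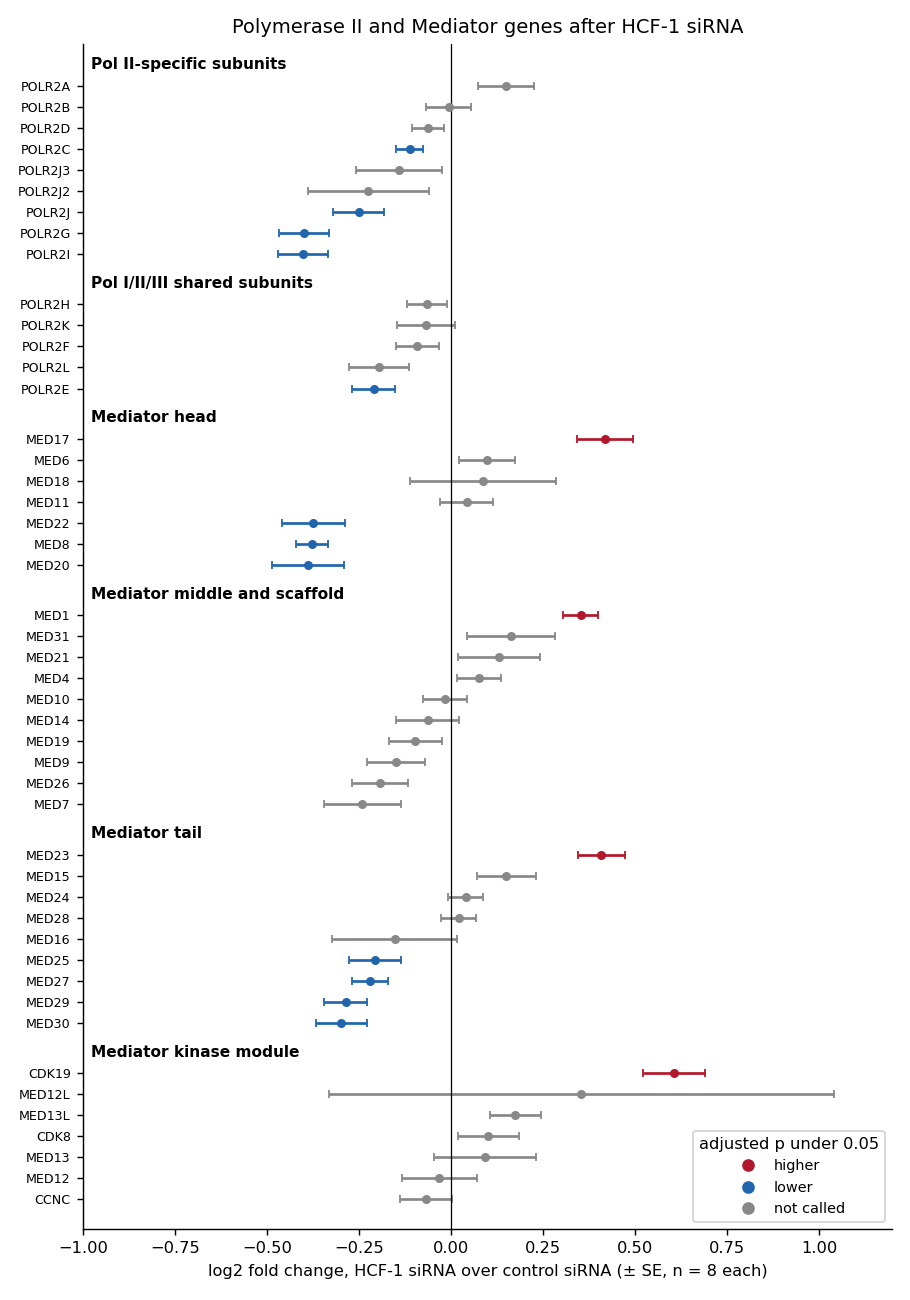
Log2 fold change of HCF-1 siRNA over control siRNA for each of the 47 members tested, grouped by subcomplex; bars are the standard error with 8 libraries per group and colours mark calls at an adjusted p under 0.05. Blue points, lower after HCF-1 siRNA, occur among polymerase, head and tail genes, and the 4 red points are MED17, MED1, MED23 and CDK19.

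The subunits that only polymerase II uses were led by POLR2I and POLR2G. POLR2I (RPB9), a small subunit that in yeast takes part in transcript cleavage and fidelity, ran from 624 to 830.0 normalized counts with a median of 741 after HCF-1 siRNA, against 793 to 1074 with a median of 982 in controls. The ranges overlapped between the highest HCF-1 siRNA library and the lowest control library. POLR2I fell by 0.40 ± 0.07 on the log2 scale, to 75.6% of the control mean (adjusted p = 1.78e-04). In the annotation used, 79.6% of its exon bases are shared with 3 genes on the opposite strand, TBCB among them, and whether reads were counted by strand is not stated for this table. TBCB itself averaged 2580 normalized counts after HCF-1 siRNA and 2960.3 in controls (log2 fold change -0.20 ± 0.05, adjusted p = 0.00483), and what it adds to the POLR2I value was not tested.

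POLR2G (RPB7) forms the stalk of the enzyme with POLR2D (RPB4), near the exit of the nascent RNA. POLR2G ran from 826 to 1113 normalized counts with a median of 981 after HCF-1 siRNA, against 1169.7 to 1452 with a median of 1274 in controls. The groups did not overlap, which held for 1 of the 14 polymerase genes and for 9.82% of all genes tested (4.59% higher and 5.23% lower after HCF-1 siRNA). Among the 33 Mediator genes it held for 5, namely MED8 and MED27, which were lower, and MED1, MED23 and CDK19, which were higher. POLR2G fell by 0.40 ± 0.07, to 75.8% of the control mean (adjusted p = 2.10e-04), and no other gene shares its exon bases. Its partner POLR2D had 1923 to 2255 (median 2091) after HCF-1 siRNA and 1931 to 2313 (median 2224) in controls. For POLR2D the log2 fold change was -0.06 ± 0.04 (adjusted p = 0.276), with widely overlapping groups; with a correction for transcript length and GC content it was -0.12, with an adjusted p of 0.0369.

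POLR2C (RPB3) and POLR2J (RPB11) pair with each other as the platform on which the enzyme assembles. POLR2J ran from 818 to 1013 normalized counts with a median of 882 after HCF-1 siRNA, against 913 to 1280.4 with a median of 1071 in controls. POLR2C ran from 3179 to 3606 with a median of 3342 after HCF-1 siRNA, against 3373 to 3827 with a median of 3645 in controls. Both had overlapping groups with lower medians after HCF-1 siRNA. POLR2J fell by 0.25 ± 0.07 (adjusted p = 0.00939), and POLR2C fell by 0.11 ± 0.04 (adjusted p = 0.0223), to 92.5% of the control mean. Neither call held after the length and GC correction, which gave -0.12 for POLR2J (adjusted p = 0.122) and -0.05 for POLR2C (adjusted p = 0.191), and POLR2C also missed the threshold with no filter on low genes (adjusted p = 0.0872). Over 30 alternatives the adjusted p ranged from 0.00253 to 0.161 for POLR2J and from 0.00475 to 0.241 for POLR2C. The copies POLR2J2 and POLR2J3 share sequence with POLR2J and with one another, so reads may be split among the 3 and their values are uncertain. POLR2J2 had 129 to 304 normalized counts after HCF-1 siRNA and 204 to 306 in controls (log2 fold change -0.23 ± 0.16, adjusted p = 0.304). POLR2J3 had 274 to 499.5 after HCF-1 siRNA and 332 to 489 in controls (-0.14 ± 0.12, adjusted p = 0.367), and neither copy was called. Other genes on the same strand share 76.2% of the exon bases of POLR2J3.

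The catalytic core did not pass the test. POLR2A, the largest subunit, whose C-terminal repeats are phosphorylated through the transcription cycle, ran from 7484 to 10055 normalized counts with a median of 8253 after HCF-1 siRNA, against 5772 to 8659 with a median of 7788 in controls. The groups overlapped, the log2 fold change was 0.15 ± 0.08 (adjusted p = 0.136), and POLR2A was the 1 polymerase gene above 0. POLR2B, which forms the active centre together with POLR2A, had 3321 to 4406 (median 3847) after HCF-1 siRNA and 3439 to 4265 (median 3769) in controls (-0.01 ± 0.06, adjusted p = 0.948). Its sign turned when any of 6 libraries was left out, within -0.04 to 0.02, so no direction is given for it.

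Among the 5 subunits shared by polymerases I, II and III, POLR2E (RPB5), at the jaw that grips incoming DNA, was the 1 called. It ran from 4678 to 6236 normalized counts with a median of 5349 after HCF-1 siRNA, against 5619.6 to 7001 with a median of 6109 in controls. The groups overlapped, and POLR2E fell by 0.21 ± 0.06, to 86.5% of the control mean (adjusted p = 0.00930). Its promoter is the one printed above with ACTACAA, a word also in the windows of CDK8 and MED11, which were not called. A link between the word and the change was not tested. POLR2L (RPB10), which binds the POLR2C and POLR2J platform, had 1333 to 2037 (median 1665) after HCF-1 siRNA and 1613 to 2233 (median 1944) in controls. POLR2L was not called (-0.20 ± 0.08, adjusted p = 0.0665), but passed without HCF-1 siRNA replicate 3 (adjusted p = 0.0267) or 6 (0.0345), without control replicate 3 (0.0266), with array weights (0.0488) and with total-count scaling (0.0339). Its adjusted p over 30 alternatives ran from 0.0266 to 0.727. POLR2L shares 22.5% of its exon bases with CD151 on the opposite strand, which fell by 0.18 ± 0.05 (adjusted p = 0.00771), and the part of CD151 in its value was not tested. POLR2F (RPB6), POLR2H (RPB8) and POLR2K (RPB12) had log2 fold changes of -0.09, -0.06 and -0.07 and adjusted p-values of 0.237, 0.382 and 0.524. POLR2F and POLR2H took the opposite sign with the length and GC correction (0.01 and 0.08), while POLR2K passed under it with -0.16 (adjusted p = 0.00674).

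**Figure D2:**
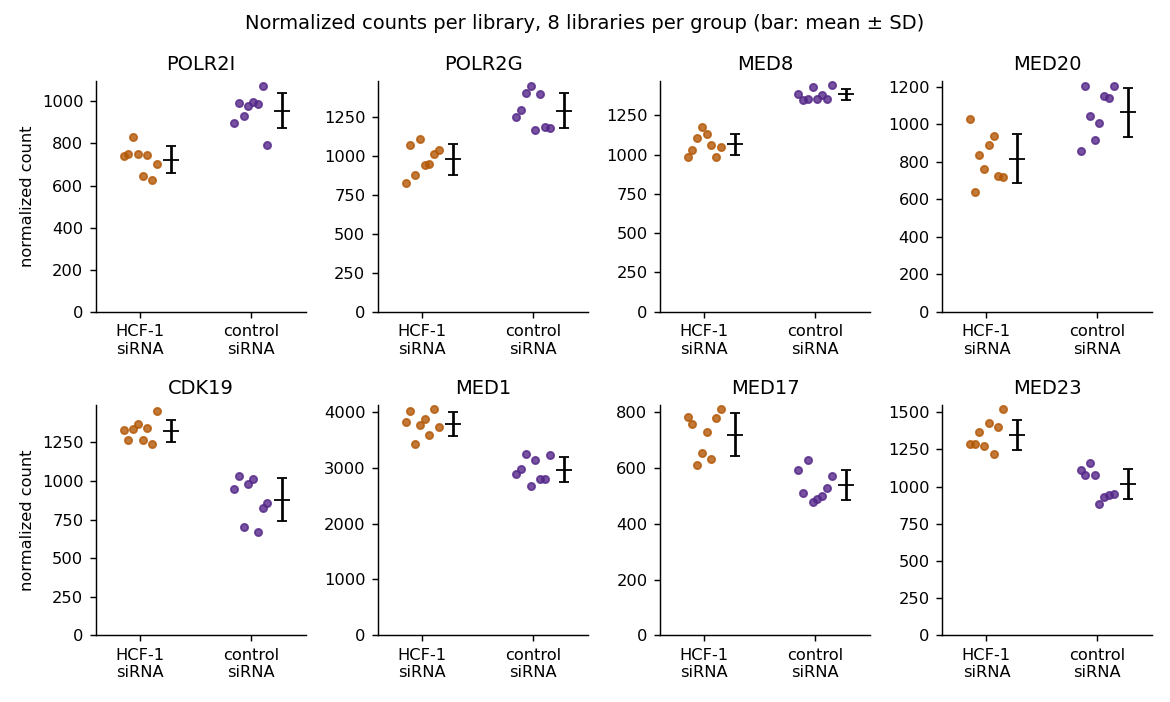
Normalized counts of 8 members in every library, HCF-1 siRNA left and control siRNA right in each panel, with bars for the mean and SD of 8 libraries. POLR2I, POLR2G, MED8 and MED20 sit lower and CDK19, MED1, MED17 and MED23 higher after HCF-1 siRNA; the groups do not overlap for POLR2G, MED8, CDK19, MED1 and MED23.

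The Mediator head held changes in both directions, with 3 of its 7 genes lower and 1 higher. MED8 and MED20 belong to the movable jaw of the head, together with MED18. MED8 ran from 984 to 1176 normalized counts with a median of 1056 after HCF-1 siRNA, against 1351 to 1446 with a median of 1369.6 in controls. The groups did not overlap, the control libraries lay within a coefficient of variation of 2.66%, and MED8 fell by 0.38 ± 0.04, to 77.0% of the control mean (adjusted p = 4.31e-06). MED20 ran from 640.3 to 1031 with a median of 798 after HCF-1 siRNA, against 856 to 1204 with a median of 1094 in controls. Its groups overlapped and it fell by 0.39 ± 0.10, to 76.7% of the control mean (adjusted p = 0.00481). MED18 was too variable for a statement of that size, at 198 to 556 after HCF-1 siRNA and 198 to 441 in controls, with coefficients of variation of 32.2% after HCF-1 siRNA and 25.3% in controls (log2 fold change 0.09 ± 0.20, adjusted p = 0.762).

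MED22 pairs with MED11 in the head. MED22 ran from 654 to 1022 normalized counts with a median of 894 after HCF-1 siRNA, against 979.5 to 1243 with a median of 1153 in controls. The groups overlapped by a narrow margin and MED22 fell by 0.37 ± 0.09 (adjusted p = 0.00236), whereas MED11 had 0.04 ± 0.07 (adjusted p = 0.677). Of the exon bases of MED11, 36.9% are shared with opposite-strand genes, among them CXCL16, which fell by 0.27 ± 0.05 (adjusted p = 8.84e-04), and its part in the MED11 value was not tested. MED17, the central scaffold of the head, went the other way. It ran from 611 to 811 with a median of 744 after HCF-1 siRNA, against 479 to 629 with a median of 521 in controls. MED17 rose by 0.42 ± 0.08, to 134% of the control mean (adjusted p = 3.57e-04), with 2 ranges that overlap at their edges. TAF1D, on the opposite strand, shares exon bases with MED17 (13.5% of the exon bases of MED17 overlap other genes) and was also higher, at 1982 normalized counts after HCF-1 siRNA and 1420 in controls (0.48 ± 0.09, adjusted p = 4.72e-04). The part of TAF1D in the MED17 value was not tested. MED6 had 0.10 ± 0.08 (adjusted p = 0.337).

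In the middle, with the scaffold MED14, 1 of 10 genes was called. MED1, which binds nuclear receptors, ran from 3419.9 to 4055 normalized counts with a median of 3794 after HCF-1 siRNA, against 2673 to 3246 with a median of 2928 in controls. The groups did not overlap, and MED1 rose by 0.35 ± 0.05, to 128% of the control mean (adjusted p = 2.36e-05). MED14, the backbone that joins head, middle and tail, had 1148 to 1630.3 (median 1262) after HCF-1 siRNA and 1168 to 1730.5 (median 1289) in controls. MED14 was not called (-0.06 ± 0.09, adjusted p = 0.598), although it passed with the length and GC correction (-0.19, adjusted p = 0.0437). MED26, which links Mediator to elongation factors, ran from 228 to 323 (median 278) after HCF-1 siRNA and from 281 to 352 (median 307) in controls. It missed the threshold (-0.19 ± 0.08, adjusted p = 0.0571) but passed in 6 of 30 alternatives, among them without HCF-1 siRNA replicate 3 (0.0254) and without control replicate 8 (0.0428). Over those 30, its adjusted p ran from 0.0254 to 0.171, and 50.1% of its exon bases overlap other annotated genes.

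The remaining 7 middle genes had log2 fold changes between -0.24 and 0.16. MED7 and MED21 form the hinge of the middle. MED7 had 101 to 168 normalized counts after HCF-1 siRNA and 140.3 to 189.8 in controls (-0.24 ± 0.10, adjusted p = 0.0804), and MED21 had 230.2 to 414 after HCF-1 siRNA and 253 to 362 in controls (0.13 ± 0.11, adjusted p = 0.384). MED7 passed without HCF-1 siRNA replicate 5 (adjusted p = 0.0475) and with the length and GC correction (0.0409). It also passed with that correction joined to a replicate block, within an overall range of 0.0349 to 0.199. For MED31, MED4, MED10, MED19 and MED9 the log2 fold changes were 0.16, 0.08, -0.02, -0.10 and -0.15, with adjusted p-values of 0.306, 0.337, 0.850, 0.320 and 0.146, and all 5 had overlapping groups. MED31 shares 58.3% of its exon bases with TXNDC17 on the opposite strand, which fell by 0.21 ± 0.06 (adjusted p = 0.00608), and its part in the MED31 value was not tested.

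In the tail, 4 of 9 genes fell and 1 rose. MED23, which receives signal-dependent activators such as ELK1, ran from 1218 to 1519 normalized counts with a median of 1328 after HCF-1 siRNA, against 885 to 1161 with a median of 1012 in controls. The groups did not overlap, and MED23 rose by 0.41 ± 0.06, to 132% of the control mean (adjusted p = 9.05e-05). MED27, MED29 and MED30, small subunits of the upper tail near the head, moved to lower values. MED27 ran from 582 to 664 with a median of 624 after HCF-1 siRNA, against 671 to 796 with a median of 717 in controls, and its groups did not overlap. MED29 ran from 981 to 1220.0 with a median of 1094 after HCF-1 siRNA, against 1189 to 1486 with a median of 1360.1 in controls. For MED30 the range was 189.9 to 224 with a median of 207 after HCF-1 siRNA, against 222 to 287 with a median of 256 in controls. The last pair of genes overlapped between groups only at the edges of their ranges. MED27 fell by 0.22 ± 0.05 (adjusted p = 0.00219), MED29 by 0.29 ± 0.06 (adjusted p = 0.00103) and MED30 by 0.30 ± 0.07 (adjusted p = 0.00261), to 85.7%, 81.9% and 81.1% of their control means.

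MED25, a target of activators such as ATF6, ran from 906 to 1290.3 normalized counts with a median of 1089 after HCF-1 siRNA, against 1156 to 1364 with a median of 1265 in controls. It fell by 0.21 ± 0.07 with overlapping groups (adjusted p = 0.0301), a call that was lost in 12 of 30 alternatives, over which the adjusted p ran from 0.0113 to 0.0972. Leaving out any one of HCF-1 siRNA replicates 1, 2, 4 and 8 or control replicates 4, 5, 6 and 8 gave values of 0.0504 to 0.0608. MED16, MED28 and MED24 had log2 fold changes of -0.15, 0.02 and 0.04 (adjusted p = 0.511, 0.763 and 0.555), and MED16 varied widely, at 1156 to 2931 after HCF-1 siRNA and 1545 to 2717 in controls. MED15 binds the sterol regulators of the SREBP family. It had 1802 to 2367 after HCF-1 siRNA and 1515 to 2421 in controls (0.15 ± 0.08, adjusted p = 0.156). MED15 passed without control replicate 4 (adjusted p = 0.0489) and with a replicate block joined to the length and GC correction. Its adjusted p ran from 0.0183 to 0.296 over the alternatives.

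In the kinase module CDK19 was called and the other 6 genes were not. CDK19 ran from 1236 to 1454 normalized counts with a median of 1333 after HCF-1 siRNA, against 672 to 1030.3 with a median of 902 in controls. The groups did not overlap, and CDK19 rose by 0.61 ± 0.08, to 151% of the control mean (adjusted p = 2.67e-05), the largest increase among the 47 members tested. CDK8, the alternative kinase of the module, had 416 to 536 (median 439) after HCF-1 siRNA and 368 to 518 (median 419) in controls (0.10 ± 0.08, adjusted p = 0.361). Its groups overlapped over most of their range.

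The balance of the kinases was compared within each library as log2 CDK8 minus log2 CDK19. It was -1.68 to -1.39 with a median of -1.51 after HCF-1 siRNA, against -1.48 to -0.44 with a median of -1.02 in controls. The group means, -1.53 after HCF-1 siRNA and -1.02 in controls, differed by -0.51, and the two-sided exact permutation p over all splits of 8 against 8 was 9.32e-04 (0.00280 after Benjamini-Hochberg adjustment over the 3 paralog pairs tested). The ranges overlapped, and leaving out any 1 library kept the difference between -0.57 and -0.42. Per kilobase of transcript, CDK19 stood at 212 normalized counts after HCF-1 siRNA and 141 in controls, and CDK8 at 151 after HCF-1 siRNA and 141 in controls, so the kinases were level with one another in controls on that scale.

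**Figure D3:**
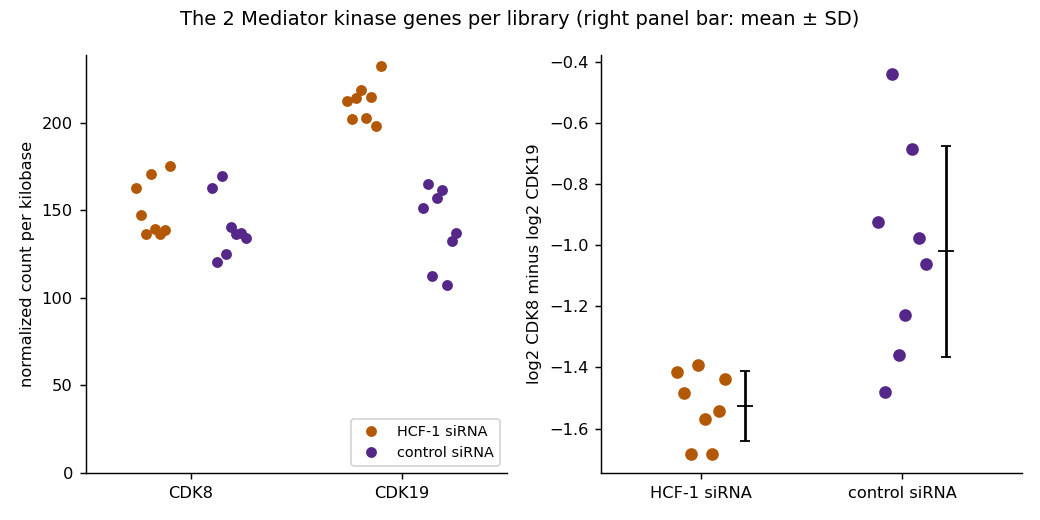
Left, normalized counts per kilobase of transcript of CDK8 and CDK19 in each library; right, log2 CDK8 minus log2 CDK19 per library from normalized counts not divided by length, with bars for the mean and SD of 8 libraries. CDK19 is higher in all 8 HCF-1 siRNA libraries than in any control library, and the difference on the right has a median of -1.51 after HCF-1 siRNA and -1.02 in controls.

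MED12, which activates the kinase, had 1235 to 1761 normalized counts (median 1425) after HCF-1 siRNA and 1204 to 1985 (median 1417) in controls (-0.03 ± 0.10, adjusted p = 0.832). MED13, which tethers the module to the core, had 1567 to 2915 after HCF-1 siRNA and 1352 to 2565 in controls (0.09 ± 0.14, adjusted p = 0.637). Cyclin C, encoded by CCNC, had 1403 to 1979 after HCF-1 siRNA and 1699 to 1903 in controls (-0.07 ± 0.07, adjusted p = 0.474). All 3 had overlapping groups, and the spread of CCNC was wider after HCF-1 siRNA, with a coefficient of variation of 13.3%, against 4.0% in controls. MED13L, the paralog of MED13, had 1473 to 1692 (median 1586) after HCF-1 siRNA and 1150.3 to 1699.5 (median 1425) in controls (0.17 ± 0.07, adjusted p = 0.0570). It passed without HCF-1 siRNA replicate 3 (adjusted p = 0.0470) or without control replicate 2 (0.0466), 5 (0.0170) or 7 (0.0411). MED13L also passed with DESeq2 and with reads thinned to the smallest library. The length and GC correction gave -0.01, and the adjusted p of MED13L over 30 alternatives ran from 0.0170 to 0.942. MED12L was low, at 4.07 to 73.4 normalized counts after HCF-1 siRNA and 4.25 to 68.4 in controls, or 5 to 71 reads in HCF-1 siRNA libraries and 4 to 76 reads in control libraries. Its libraries differed widely within each group, with coefficients of variation of 98.55% after HCF-1 siRNA and 129% in controls, and its log2 fold change of 0.35 ± 0.69 was not called (adjusted p = 0.719). The log2 difference MED12 minus MED12L averaged 6.49 after HCF-1 siRNA and 6.88 in controls (exact permutation p = 0.637). For MED13 minus MED13L the averages were 0.45 after HCF-1 siRNA and 0.53 in controls (exact permutation p = 0.551, and 0.637 for both pairs after adjustment).

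Levels were compared between genes per kilobase, using the longest annotated transcript of each, which gives an approximate scale only. Polymerase genes had a median of 753 normalized counts per kilobase after HCF-1 siRNA and 884 in controls, and Mediator genes one of 213 after HCF-1 siRNA and 219 in controls. POLR2L, POLR2E and POLR2C were the most abundant members after HCF-1 siRNA, at 1914, 1903 and 1631 per kilobase, and stood at 2185, 2199 and 1763 in controls. POLR2A followed at 1253 after HCF-1 siRNA and 1132 in controls. The most abundant Mediator genes were MED24, at 1035 after HCF-1 siRNA and 1007 in controls, and CCNC, at 694 after HCF-1 siRNA and 723 in controls. MED12L was lowest of the tested members, at 2.18 after HCF-1 siRNA and 2.06 in controls. The summed level of the polymerase genes was 12012 to 13290 per kilobase across HCF-1 siRNA libraries and 13141 to 14686 across control libraries, while that of the Mediator genes was 9865 to 10483 after HCF-1 siRNA and 10173 to 10603 in controls.

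The polymerase and Mediator genes were also set side by side within each library, as the median over genes of the log2 level relative to the control mean. The polymerase median was -0.25 to -0.03 across HCF-1 siRNA libraries and -0.04 to 0.10 across control libraries, with little overlap. The Mediator median was -0.06 to 0.03 after HCF-1 siRNA and -0.04 to 0.06 in controls, with nearly the same range. Polymerase minus Mediator was -0.19 to -0.06 after HCF-1 siRNA, with a median of -0.09, and -0.09 to 0.10 in controls, with a median of 0.03. It was below 0 in all 8 HCF-1 siRNA libraries. Control replicates 1, 5 and 8 were below 0 as well, at -0.07, -0.004 and -0.09. These are descriptions of the chosen genes and carry no test.

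**Figure D4:**
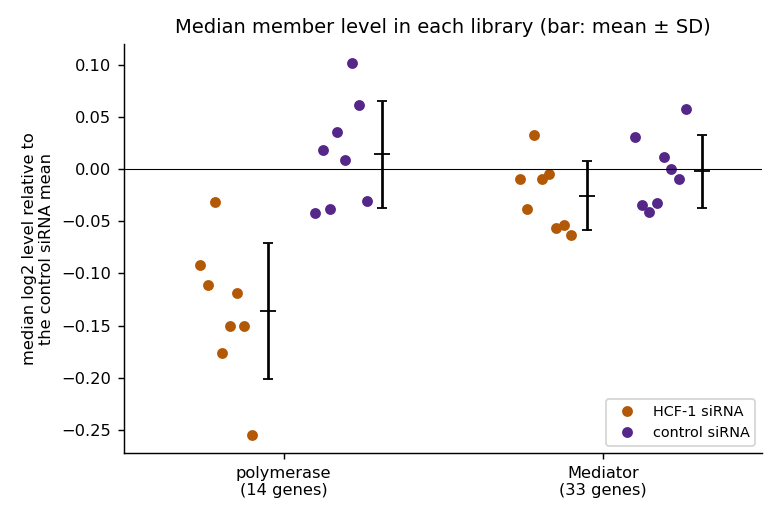
Median over the 14 polymerase genes and over the 33 Mediator genes of the log2 level relative to the control mean, 1 point per library, with bars for the mean and SD of 8 libraries. The polymerase medians lie at -0.25 to -0.03 after HCF-1 siRNA and -0.04 to 0.10 in controls, and the Mediator medians lie at -0.06 to 0.03 after HCF-1 siRNA and -0.04 to 0.06 in controls.

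Transcript length and GC content moved with these differences. Across the genes tested, sorted into 5 equal classes of transcript length from short to long, the median log2 fold change was -0.09, -0.05, -0.01, 0.04 and 0.10. In 5 classes of GC content from low to high it was 0.10, 0.05, 0.01, -0.06 and -0.11. Polymerase genes had a median length of 2061 bases and 56.0% GC, and Mediator genes 3351 bases and 46.1% GC. The 4 members that rose had transcripts of 5142 to 6246 bases, with a median GC of 42.4%, and the 12 that fell had 932 to 4367 bases, with a median GC of 53.1%. With both properties corrected in each library, 36.4% of genes were called, polymerase genes gave 0 higher and 5 lower with a median of -0.09, and Mediator genes gave 4 higher and 8 lower with a median of -0.02. The genes called lower were not all the same as before. POLR2I, POLR2G and POLR2E kept their calls, POLR2J and POLR2C lost theirs, and POLR2D and POLR2K gained one. Among Mediator genes MED25 lost its call, and MED7 and MED14 gained one. Under that correction MED17, MED1, MED23 and CDK19 rose by 0.34, 0.29, 0.32 and 0.51 (adjusted p = 3.61e-04, 2.40e-05, 2.68e-04 and 1.53e-04). POLR2I and POLR2G fell by 0.23 and 0.33 (adjusted p = 0.00534 and 9.16e-04), and MED8 and MED20 fell by 0.33 and 0.37 (adjusted p = 7.37e-06 and 0.00714).

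**Figure D5:**
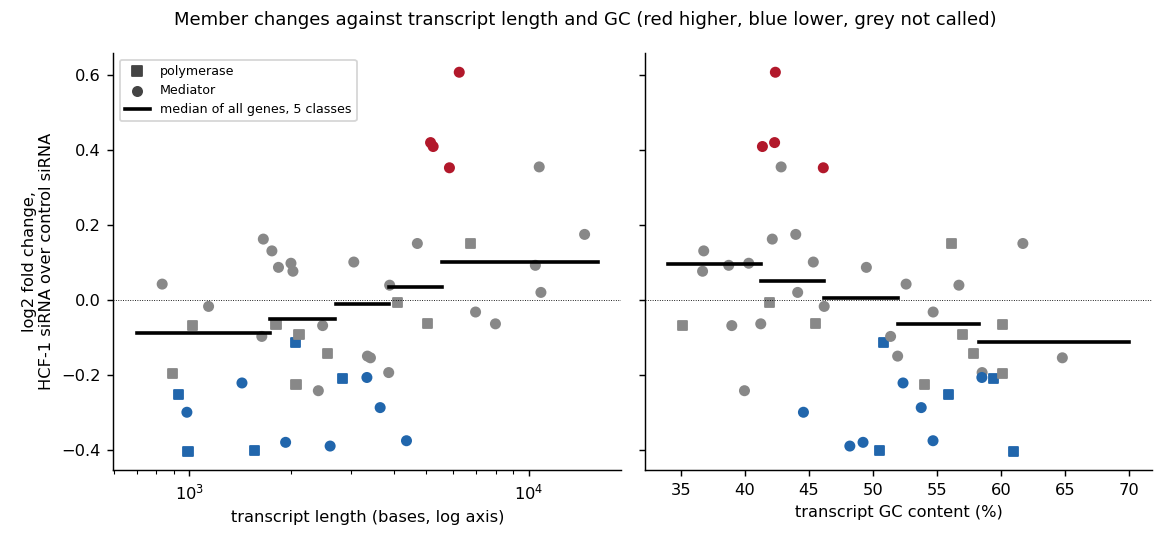
Log2 fold change of HCF-1 siRNA over control siRNA of each member against transcript length (log axis) and GC content; squares are polymerase genes, circles Mediator genes, and black bars the median of all genes tested in each of 5 classes. The 4 red points, higher after HCF-1 siRNA, lie at 5142 to 6246 bases, and the black bars run from -0.09 to 0.10 with length and from 0.10 to -0.11 with GC content.

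Other genes of the transcription machinery were described from lists of their own, whose counts read against the 18.2% of all genes that rose and the 18.3% that fell. Of 19 subunits specific to polymerases I and III, 4 rose and 8 fell (63.2% called, against 36.6% of all genes), with a median of -0.11. POLR1F, a stalk subunit of polymerase I, averaged 486 ± 89.9 normalized counts after HCF-1 siRNA and 679.8 ± 126 in controls (log2 fold change -0.48 ± 0.12, adjusted p = 0.00525). POLR3A, the largest subunit of polymerase III, rose, at 3154 ± 214 after HCF-1 siRNA and 2499 ± 367 in controls (0.35 ± 0.08, adjusted p = 0.00180). Of 14 genes for assembly and import of polymerase II, 1 rose and 5 fell (42.9% called), with a median of -0.09. RPAP1, an assembly factor, averaged 3203 ± 308 after HCF-1 siRNA and 2146 ± 334 in controls without overlap (0.59 ± 0.09, adjusted p = 4.88e-05). RUVBL1, an ATPase of the R2TP chaperone complex, averaged 2025 ± 114 after HCF-1 siRNA and 2508 ± 117 in controls, also without overlap (-0.31 ± 0.04, adjusted p = 2.23e-05), and its partner WDR92 had 326 ± 35.9 after HCF-1 siRNA and 389 ± 40.0 in controls (-0.26 ± 0.08, adjusted p = 0.0189).

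Of 33 general transcription factor genes, 4 rose and 6 fell, with a median of -0.04, and the 30.3% called was below the share of all genes. TAF1, the largest subunit of TFIID, averaged 1534 ± 335 normalized counts after HCF-1 siRNA and 979 ± 122 in controls (0.62 ± 0.13, adjusted p = 0.00119). TAF10, shared by TFIID and SAGA, averaged 918 ± 92.8 after HCF-1 siRNA and 1335 ± 72.9 in controls (-0.55 ± 0.06, adjusted p = 3.28e-06), and GTF2H5, a small subunit of TFIIH, 669 ± 47.8 after HCF-1 siRNA and 895 ± 46.0 in controls (-0.42 ± 0.05, adjusted p = 1.02e-05). The groups of TAF10 and GTF2H5 did not overlap. A list of 14 genes held kinases and phosphatases of the C-terminal domain, with their cyclins and with RPRD1A, RPRD1B and RPRD2, which are neither. Of these 14 genes, 4 rose, RPRD2 among them, and 2 fell (42.9% called), with a median of 0.08. CCNT2, a cyclin of the elongation kinase P-TEFb, averaged 1471 ± 229 after HCF-1 siRNA and 967 ± 143 in controls (0.60 ± 0.10, adjusted p = 1.95e-04). CCNT1, another cyclin of P-TEFb, rose, at 931 ± 170 after HCF-1 siRNA and 753 ± 130 in controls (0.30 ± 0.11, adjusted p = 0.0389). CDK9, the catalytic subunit of P-TEFb, fell, at 769 ± 119 after HCF-1 siRNA and 923 ± 78.5 in controls (-0.28 ± 0.09, adjusted p = 0.0270). Neither CCNT1 nor CDK9 passed with the length and GC correction (adjusted p = 0.194 and 0.0811). CDK12, which phosphorylates the C-terminal domain, had 6348 ± 492 after HCF-1 siRNA and 4892 ± 412 in controls (0.38 ± 0.06, adjusted p = 6.15e-05). SSU72, a phosphatase of that domain, fell, with 2709 ± 91.7 after HCF-1 siRNA and 3386 ± 148 in controls (-0.32 ± 0.03, adjusted p = 2.22e-06).

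Of 31 pausing and elongation factor genes, 7 rose and 5 fell, with a median of -0.06, and the 38.7% called was close to the 36.6% of all genes. ELL2, part of the super elongation complex, averaged 4942 ± 626 normalized counts after HCF-1 siRNA and 3613 ± 329 in controls (0.45 ± 0.08, adjusted p = 2.03e-04). IWS1, a partner of the histone chaperone SPT6, averaged 3395 ± 145 after HCF-1 siRNA and 2590.2 ± 171 in controls (0.39 ± 0.04, adjusted p = 3.05e-06), and neither gene's groups overlapped. MLLT3, another part of the super elongation complex, averaged 422 ± 58.8 after HCF-1 siRNA and 325 ± 52.4 in controls (0.38 ± 0.11, adjusted p = 0.0103), and missed the threshold with the length and GC correction (adjusted p = 0.0636).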

How the data were processed

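The deposited values are normalized counts, a signal for each Ensembl gene in each library. The submitters' processing notes name build hg19 and the tools DESeq2 1.16.1, featureCounts 1.4.4, STAR 2.4.1d and cutadapt 1.4.2. A stranded mRNA kit was used, per the labels' protocols; no source used here states the annotation release, the strand setting or a filter. Values in each library were whole multiples of a common step (100% of them, within 0.001 read), so whole reads were recovered for edgeR, DESeq2 and depth. All pairs of libraries within a group differed by more than sampling noise. What separates the replicates is not stated beyond the label, so p-values measure the spread between these libraries.

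Genes with a mean of 10 or more were tested with limma 3.58.1 in R 4.3.3 (trend and robust options) on log2(normalized count + 1), 8 libraries against 8, with no block and Benjamini-Hochberg adjustment. The pseudocount understates changes of low genes. Paralog ratios had two-sided exact permutation tests. The genes named are, per subcomplex, up to 4 of the called members that changed most and up to 3 per pathway list, with a mean of 50 or more in either group, plus catalytic, scaffold, paralog and kinase module genes. The other members were named to account for all of them, and CCNT1 and CDK9 were named beside CCNT2. A gene that this rule selects is not reported here. Members and lists were chosen with earlier results of these data known. GENCODE release 29 gave transcript length (longest transcript), exon overlap and GC content, on another build and by Ensembl identifier, for 96.6% of genes tested. The limma step was tested on simulated data of 16081 genes, with 50 genes changed at each size. In that simulation it called 26% of changes of 1.2-fold, 78% of 1.5-fold and 96% of 2-fold, and 0.0567% of unchanged genes. The Benjamini-Hochberg cut-off depends on the share of genes that change, which was far smaller there than the 36.6% called in the real data. These rates therefore describe the simulation and do not give the share of real changes missed or of false calls. A gene that was not called may still differ by a small amount. Alternatives were pseudocounts of 0.5 and 10, no filter or a filter at 50, other scalings, array weights, edgeR 4.0.16 and DESeq2 1.42.0, thinned reads, a length and GC correction, a replicate block, and fits that leave out 1 library each.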

Additional observations from a re-analysis of the deposited data

Results flagged for a closer look

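In 4 of 102 groups of 8 libraries examined, the highest or lowest library stood apart from the others by more than the critical share of the group's range in Dixon's test, and chance alone picks about 1 in 20 such groups. In HCF-1 siRNA replicate 3, POLR2F stood at 1399 normalized counts, where the other HCF-1 siRNA libraries had 1128 to 1249.9. MED19 had 333 in HCF-1 siRNA replicate 2, where the others had 239 to 279. MED14 had 1630.3 in HCF-1 siRNA replicate 2, where the others had 1148 to 1320.5. MED12L had 73.4 in HCF-1 siRNA replicate 2, where the others had 4.07 to 30.7. None of these 4 genes was called between the groups.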

How the results depend on the processing

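Of the 16 members called, POLR2I, POLR2G, POLR2E, MED20, MED8, MED22, MED17, MED1, MED30, MED29, MED23 and CDK19 kept their call and direction in all 30 alternatives. POLR2J lost its call in 2 of them, POLR2C in 3, MED27 in 1 (length and GC correction with the block, adjusted p = 0.0625) and MED25 in 12. No polymerase gene was called higher in any alternative, and 4 to 6 were called lower. Mediator gave 4 or 5 higher and 6 to 8 lower. DESeq2 called 6258 genes, edgeR 5875 and no filter 5163. The Mediator median of 0.02 moved to -0.0205 with the length and GC correction, with or without the block, and was -0.00807 with total-count scaling; the cause was not tested. Signs that turned belong to members that were not called. With the length and GC correction, with or without the block, POLR2F had 0.0116, POLR2H 0.0757, MED10 0.0109, MED28 -0.128, MED13 -0.0786 and MED13L -0.00829, and MED28 had -0.00807 with total-count scaling. With each library left out, POLR2B ranged from -0.0361 to 0.0221, MED18 from -0.0134 to 0.199, MED10 from -0.0378 to 0.00256, MED28 from -0.00127 to 0.0448 and MED12 from -0.0781 to 0.0249; the cause was not tested. Leaving out libraries also gave 5488 to 5888 genes called, a polymerase median of -0.162 to -0.101, a Mediator median of -0.00663 to 0.0448, a difference of -0.571 to -0.422 in the paralog ratio CDK8 minus CDK19, of -0.779 to -0.0601 in the paralog ratio MED12 minus MED12L and of -0.147 to -0.0119 in the paralog ratio MED13 minus MED13L. Among the pathway lists, DESeq2 called 7 general transcription factors higher in place of 4, and the length and GC correction left 1 of the C-terminal domain genes lower in place of 2. Under that correction, pausing and elongation factors gave 5 higher and 6 lower in place of 7 and 5. General transcription factors gave 3 higher and 7 lower in place of 4 and 6. Subunits of polymerases I and III gave 3 higher in place of 4.

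Libraries of the same replicate number did not deviate together. Their correlations ran from -0.0738 to 0.0976, and 1 of 8 matched its own number best, so the numbers are not used as pairs. With the replicate number as a block, the genes called were 5484, 5 polymerase genes lower, 4 Mediator genes higher and 6 lower, and MED25 missed the threshold (adjusted p = 0.0505). With the block and the length and GC correction together they were 5201. MED12L had the fewest reads of the tested members, 5 to 71 in HCF-1 siRNA libraries and 4 to 76 in control libraries.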
